A study of Mus musculus with 9 samples.

Results

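Ly6 family surface genes were described in meningeal lymphatic endothelial cells (MLECs), the cells that line the lymphatic vessels of the meninges. The 5 genes, Ly6a, Ly6c1, Ly6c2, Ly6e and Gpihbp1, were found by symbol among the 24321 genes of the expression table, and all 5 passed the filter on low values that left 9955 genes for testing. Ly6c1 and Ly6a were chosen by their higher FPKM in MLECs of tumor-bearing mice, so levels of tumor-associated against control MLECs are given for all 5 genes as a description with no test. The difference between the tumors was not used for that choice, and it was tested.

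Ly6 proteins belong to the Ly6/uPAR superfamily and are small disulfide-rich proteins that a glycosylphosphatidylinositol (GPI) lipid holds on the outer face of the cell membrane. Ly6A, also called Sca-1, marks stem and progenitor cells and is found on many endothelial cells of the mouse, Ly6C is best known from monocytes and is also carried by endothelium, and LY6E is broadly expressed and takes part in the entry of viruses. GPIHBP1 sits on capillary endothelium, where it binds lipoprotein lipase and carries it to the lumen. Several Ly6 genes respond to interferons, the secreted proteins that switch on antiviral and antigen presentation genes.

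The groups were control mice injected with PBS, mice injected with GL261 glioma cells and mice injected with B16 melanoma cells, with 3 RNA-seq libraries each. All were male, 7 to 8 weeks old at injection and 10 weeks old by the labels, and C57BL/6 by the study's methods, which name no allele or transgene for these animals. By the labels, meninges were collected about 3 weeks (GL261) or 2 weeks (B16) after injection, so that tumor and time after injection cannot be told apart, whereas the study's results text gives 2 weeks for all groups and its methods 2 to 3 weeks. The labels place the injection in the cisterna magna, the methods under the dura. Each library came from 10 sorted endothelial cells, taken from meninges pooled from 6 mice, that carried CD31 and lacked CD45. The labels gate these cells on LYVE-1, which the study's methods also list as a stain, whereas its results text gives PDPN.

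Values were FPKM, fragments per length of transcript and per total of mapped fragments, which the authors deposited without read counts, so depth is unknown and no value has a counting interval. Between 7303 and 8688 genes had an FPKM above 0 in control libraries, 9456 to 10852 in GL261 libraries and 8736 to 9950 in B16 libraries. Every control library therefore listed fewer genes than every tumor-associated library. Tbp, needed by all cells for transcription, stood at 0 in 2 of the control libraries, and a value of 0 is given as listed at 0 and not as absence. A list of 10 genes used by every cell summed to 11520.0 to 15075 FPKM in control libraries and to 15239.6 to 20336 FPKM in tumor-associated libraries, and 3 of the 10, Actb, Gapdh and Tbp, rose. The part of this shift in the levels of the 5 genes was not tested. Lyve1, the marker of the gate, was at 628 FPKM or more in all 9 libraries, but Prox1, the defining transcription factor of lymphatic endothelium, was at 20.9 to 42.2 FPKM in control libraries, at 1.87, 1.98 and 16.5 FPKM in GL261 replicates 1 to 3 and at 2.37 to 3.72 FPKM in B16 libraries.

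All 5 genes lie on chromosome 15 (mm9). Ly6e is at chr15:74785481-74790335 on the plus strand, and Ly6a (chr15:74825308-74828064), Ly6c1 (chr15:74875447-74879260) and Ly6c2 (chr15:74938590-74942114) follow on the minus strand with gaps of 35.0, 47.4 and 59.3 kb. Gpihbp1 (chr15:75427088-75428642, plus strand) lies 485 kb beyond Ly6c2. Between Ly6d and Gpihbp1 the GENCODE M1 annotation has 19 protein-coding genes, of which 16 are in the expression table. Of these 16, 9 were listed at 0 in all 9 libraries, among them Ly6d, Ly6k, Ly6f and Ly6h. The 5 that passed the filter on low values were the 5 genes described here. The other two had a value above 0 in a single library each, Ly6i at 0.867 FPKM in GL261 replicate 1 and Cyp11b1, an enzyme of steroid synthesis, at 1.87 FPKM in GL261 replicate 3.

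**Figure D1:**
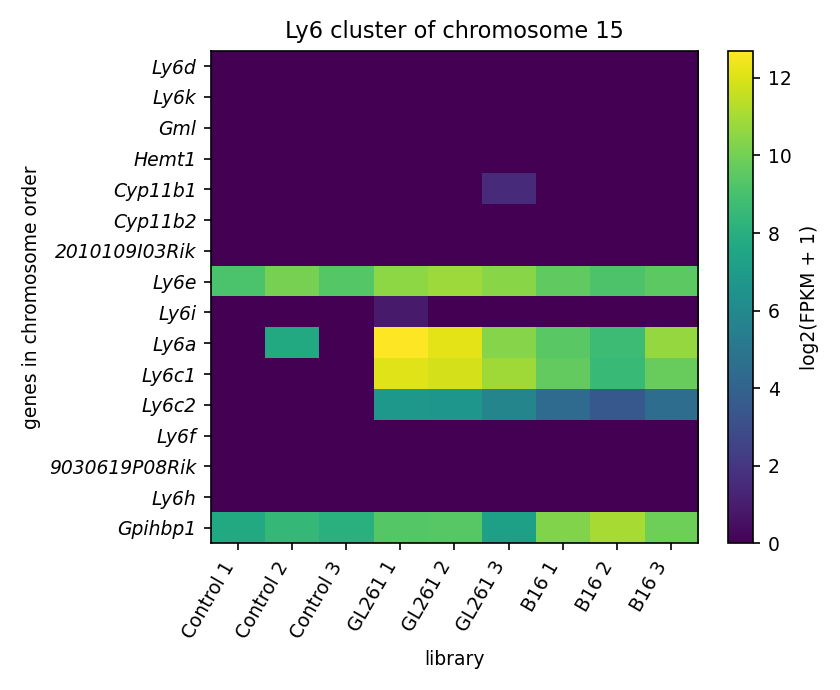
The 16 genes of the Ly6 region of chromosome 15 that are in the table, in chromosome order (rows), in each of the 9 libraries (columns), colored by log2(FPKM + 1). Ly6e and Gpihbp1 are lit in every library, Ly6c1 and Ly6c2 in the 6 tumor-associated libraries and Ly6a in these and in control replicate 2, whereas 9 rows are at 0 throughout.

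Ly6c1 and Ly6c2 are near-identical copies. Their coding sequences are both 396 bases long, differ at 9 positions (97.7% identity) and share a run of 188 identical bases. They are shown because the values of such a pair depend on how reads were divided between them. Coding bases 1 to 150 of each, from GENCODE M1 and mm9, hold 6 of the 9 differences, in capitals.
Ly6c1: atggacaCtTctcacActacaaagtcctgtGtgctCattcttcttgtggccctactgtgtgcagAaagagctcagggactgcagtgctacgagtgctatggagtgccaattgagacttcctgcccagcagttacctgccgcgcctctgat
Ly6c2: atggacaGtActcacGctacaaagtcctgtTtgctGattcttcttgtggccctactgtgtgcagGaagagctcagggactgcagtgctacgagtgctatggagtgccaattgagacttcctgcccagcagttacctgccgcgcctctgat
Of all 75-base windows of the Ly6c1 transcript 21.4% also occur in Ly6c2, and 22.7% of those of Ly6c2 occur in Ly6c1. For windows of 150 bases, the length of 1 read, the shares are 5.64% and 6.03%. Of the 75-base windows of Ly6a, 0.805% (6 of 745) occur in Ly6i, and for Ly6e and Gpihbp1 no shared window was found. Coding identity was 82.0% between Ly6a and Ly6c1 and 52.6% between Ly6a and Ly6e. For Gpihbp1 it lay between 39.4% and 40.0% against each of the others. These shares count all columns of a global alignment, gaps included, and the longer Gpihbp1 coding sequence (687 bases) brought 288 to 296 gap columns. Of paired bases alone, 271 of 396 were identical between Ly6c1 and Gpihbp1 and 224 of 390 between Ly6a and Ly6e. These alignments held 291 and 36 gap columns, and free placement of gaps raises the paired share, so these shares cannot rank the pairs.

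The stretches of 250 bases before the annotated starts were searched on both strands for 4 motifs, and the share that holds each was taken over 22380 such stretches of the annotation. The ISRE, bound by interferon regulatory factors, was searched as GAAANNGAA (7.55% of stretches). The core of ETS factor sites was searched as CCGGAA (13.9%), the promoter box near many starts as TATAAA (12.3%) and the GC box as GGGCGG (39.6%). The 5 genes held 2 matches in all, TATAAA 150 bases before the start of Ly6c1 and an ISRE match on the reverse strand 189 bases before the start of Gpihbp1, both in capitals here. The stretch of Ly6a, which held no match, is shown beside them as that of the gene with the highest FPKM.
Ly6a (chr15:74828065-74828314, minus strand): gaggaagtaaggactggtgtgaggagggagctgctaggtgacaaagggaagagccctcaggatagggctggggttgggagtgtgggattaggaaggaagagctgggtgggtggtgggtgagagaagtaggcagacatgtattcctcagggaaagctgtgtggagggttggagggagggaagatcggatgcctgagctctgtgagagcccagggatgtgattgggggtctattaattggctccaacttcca
Ly6c1 (chr15:74879261-74879510, minus strand): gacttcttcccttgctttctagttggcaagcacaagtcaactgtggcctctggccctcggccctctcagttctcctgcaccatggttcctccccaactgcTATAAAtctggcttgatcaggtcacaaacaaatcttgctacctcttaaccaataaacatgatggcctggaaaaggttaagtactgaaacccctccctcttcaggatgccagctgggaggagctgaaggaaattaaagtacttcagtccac
Gpihbp1 (chr15:75426838-75427087, plus strand): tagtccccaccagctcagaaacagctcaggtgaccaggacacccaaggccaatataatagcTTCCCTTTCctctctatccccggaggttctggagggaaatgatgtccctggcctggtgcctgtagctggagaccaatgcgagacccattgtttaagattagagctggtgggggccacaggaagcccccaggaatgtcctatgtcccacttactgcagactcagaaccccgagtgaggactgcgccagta
In a global alignment the stretch of Ly6a was 85.6% identical to that of Ly6c2 (chr15:74942115-74942364) and 42.7% identical to that of Ly6c1. Ly6c1 and Ly6c2, alike in their coding sequences, shared 44.2% there. Apart from Ly6a with Ly6c2, all pairs of the 5 genes lay between 42.7% and 48.2%, gaps included. The longest annotated transcript has 4 exons for Ly6c1 and 3 for Ly6c2. Whether their stretches lie before matching first exons was not tested.

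Ly6a (ENSMUSG00000075602.4), the Sca-1 antigen, had the highest FPKM of the 5 genes in any library. It was listed at 0 in control replicates 1 and 3 and at 206.0 FPKM in replicate 2. It reached 6649.99, 4623 and 1329.9 FPKM in GL261 replicates 1 to 3 and 699, 413 and 1655 FPKM in B16 replicates 1 to 3. Every tumor-associated library stood above every control library, and the lowest of them was 2.01 times the highest control. In GL261 replicate 1 Ly6a was the 12th most abundant gene and made up 0.792% of the summed FPKM. The difference of means, tumor-associated minus control, was 8.12 on the log2(FPKM + 1) scale, a scale on which a difference from values of 0 depends on the added 1. It was 10.68 without control replicate 2, the single control library with a value. With the number of genes above 0 in each library as a covariate it was 3.50. In libraries of 10 cells, fewer cells of a type and less RNA per cell cannot be told apart.

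Ly6c1 (ENSMUSG00000079018.3), which encodes the Ly6C1 antigen, was listed at 0 in all 3 control libraries. It was at 4375, 3719.95 and 1886 FPKM in GL261 replicates 1 to 3 and at 788, 393.0 and 873 FPKM in B16 replicates 1 to 3. All 6 tumor-associated libraries had a value above 0, and the lowest GL261 library was 2.16 times the highest B16 library. No fold is given against a group listed at 0.

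Ly6c2 (ENSMUSG00000022584.8), which encodes the Ly6C2 antigen, was likewise listed at 0 in the 3 control libraries. Its values were 108, 99.7 and 53.5 FPKM in GL261 replicates 1 to 3 and 20.7, 10.4 and 22.5 FPKM in B16 replicates 1 to 3. GL261 and B16 libraries did not overlap. Ly6c2 was at 2.46%, 2.68% and 2.84% of the Ly6c1 level in GL261 replicates 1 to 3 and at 2.62%, 2.64% and 2.57% in B16 replicates 1 to 3. The highest of these 6 shares was 1.15 times the lowest, while Ly6a per Ly6c1 ranged from 0.705 to 1.89 and Gpihbp1 per Ly6c1 from 0.0771 to 5.41. Given the identical stretches shown above, FPKM assigned to Ly6c2 and to Ly6c1 are uncertain as separate values.

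**Figure D2:**
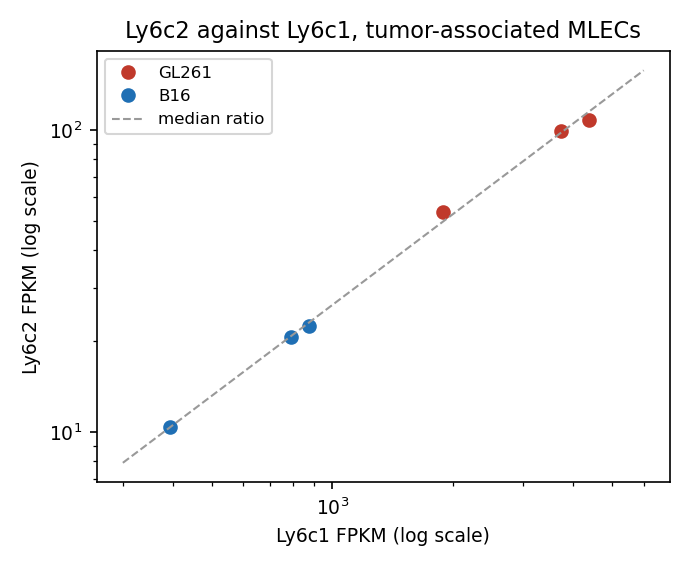
Ly6c2 against Ly6c1 in the 6 tumor-associated libraries (FPKM, both axes on a log scale; 1 point per library, red GL261, blue B16; dashed line, median ratio). All points lie close to 1 ratio, between 2.46% and 2.84%, with GL261 libraries above B16 libraries on both axes.

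Ly6e (ENSMUSG00000022587.7), the broadly expressed member, was present in every library. It was at 552, 1096 and 649 FPKM in control replicates 1 to 3, at 1503, 1825 and 1409 FPKM in GL261 replicates and at 774, 571 and 719 FPKM in B16 replicates. The group means were 765 ± 290 (SD, n = 3), 1579 ± 218 (SD, n = 3) and 688 ± 105 FPKM (SD, n = 3). All GL261 libraries stood above all control and all B16 libraries, by at least 1.29 and 1.82 times, while control and B16 libraries overlapped. On the log2(FPKM + 1) scale the difference from control was 1.10 (SE 0.27) for GL261 and -0.10 (SE 0.27) for B16, and both values share the same control libraries. For the joined tumors it was 0.50 (SE 0.37), and -0.60 with the number of genes above 0 as a covariate.

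Gpihbp1 (ENSMUSG00000022579.4), the carrier of lipoprotein lipase, went the other way between the tumors. It was at 211, 353 and 267 FPKM in control replicates 1 to 3, at 661, 666 and 145 FPKM in GL261 replicates and at 1268, 2128 and 958 FPKM in B16 replicates. The group means were 277 ± 71.3 (SD, n = 3), 491 ± 299 (SD, n = 3) and 1451 ± 606 FPKM (SD, n = 3). All B16 libraries stood above all control libraries, by at least 2.71 times, and above all GL261 libraries, by at least 1.44 times. GL261 libraries lay on both sides of the control libraries, since replicate 3 was below all 3 of them. The difference from control on the log2(FPKM + 1) scale was 0.56 (SE 0.53) for GL261 and 2.34 (SE 0.53) for B16, from the same controls.

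Counted over the family, Ly6a, Ly6c1 and Ly6c2 were higher in all tumor-associated than in all control libraries, a pattern that 6.08% of the genes tested had. GL261 and control libraries were separated in this direction for 4 genes, these 3 and Ly6e (background 13.7%), and B16 and control libraries for 4, these 3 and Gpihbp1 (background 10.2%). Ly6a and Ly6c1 were chosen by their values in this contrast, and nothing is read from these counts.

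**Figure D3:**
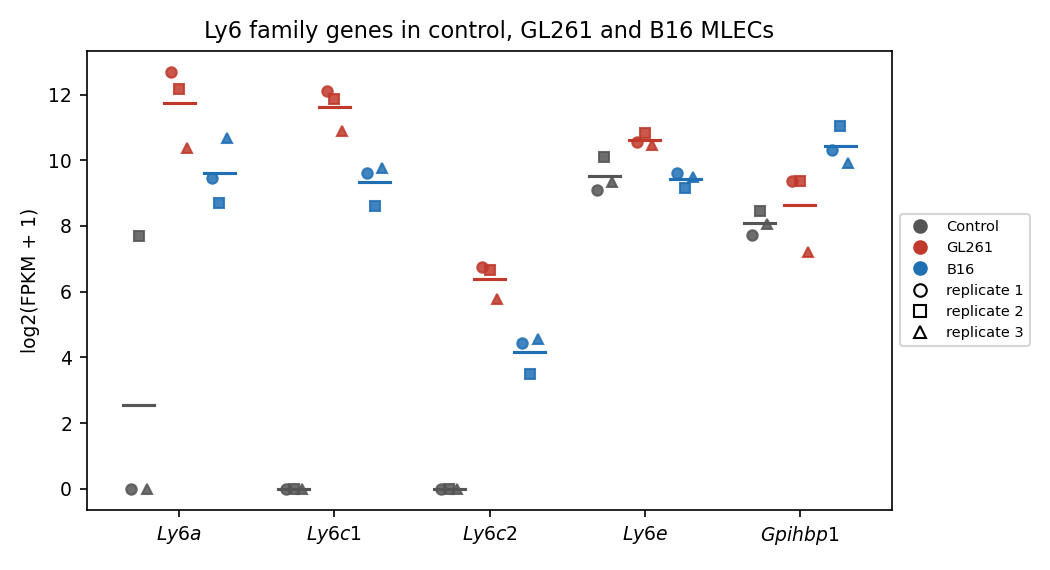
Level of each gene in each library on the log2(FPKM + 1) scale (points; circle, square and triangle for replicates 1, 2 and 3; gray control, red GL261, blue B16; bars, group means, n = 3). Ly6a, Ly6c1, Ly6c2 and Ly6e have their highest mean in GL261 and Gpihbp1 in B16, and Ly6e and Gpihbp1 are the 2 genes above 0 in all control libraries.

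Since FPKM are per length, levels can be ordered between genes. In control MLECs Ly6e was the most abundant, and its lowest library (552 FPKM) was above the highest of Gpihbp1 (353 FPKM). In GL261 MLECs the order of means was Ly6a (4201 ± 2685 FPKM, SD, n = 3), Ly6c1 (3327 ± 1290.1 FPKM, SD, n = 3), Ly6e, Gpihbp1 and Ly6c2 (87.0 ± 29.3 FPKM, SD, n = 3). Libraries of Ly6a and Ly6c1 overlapped there, and the later neighbors did not. In B16 MLECs the order was Gpihbp1, Ly6a (922 ± 650.0 FPKM, SD, n = 3), Ly6e, Ly6c1 (685 ± 256 FPKM, SD, n = 3) and Ly6c2 (17.8 ± 6.51 FPKM, SD, n = 3). All neighbors but the last pair overlapped, while the libraries of Gpihbp1 (958 FPKM or more) were above those of Ly6e (774 FPKM or less) and Ly6c1 (873 FPKM or less).

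Whether the 2 tumors differed was tested with limma over all 9955 genes, with Benjamini-Hochberg adjustment. Ly6c1, Ly6c2 and Ly6e were higher in every GL261 than in every B16 library (3 of 5 genes, against 7.13% of all genes tested), and Gpihbp1 was higher in every B16 library (1 of 5 genes, against 6.66%). None of the 5 passed the threshold of 0.05 on the adjusted p, which 0.01% of all genes did (1 gene, B2m). At an unadjusted limma p under 0.05 there were 4 of the 5, all but Ly6a, and 5.50% of all genes. By the ROC power above 0.4 that the study used, all 5 were called and so were 45.5% of all genes.

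The GL261 minus B16 difference of Ly6c1 was 2.27 on the log2(FPKM + 1) scale (SE 0.43, 95% interval 1.33 to 3.22, limma adjusted p = 0.128). For Ly6c2 it was 2.23 (SE 0.68, interval 0.75 to 3.71, limma adjusted p = 0.499), a value that may share reads with that of Ly6c1. The means of these genes were 4.86 and 4.88 times higher in GL261 than in B16 MLECs. Ly6e differed by 1.20 (SE 0.27, interval 0.61 to 1.79, limma adjusted p = 0.220), with a ratio of means of 2.30. Gpihbp1 differed by -1.77 (SE 0.53, interval -2.93 to -0.61, limma adjusted p = 0.477), with a mean 2.96 times higher in B16 MLECs. For each of these 4 genes the exact two-sided permutation test of 3 against 3 libraries gave p = 0.1, the smallest p it allows. The intervals of these 4 genes left out 0 although the adjusted p missed the threshold, since the adjustment runs over all genes.

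Ly6a differed by 2.14 between GL261 and B16 (SE 1.62, interval -1.42 to 5.69, limma adjusted p = 1; exact two-sided permutation p = 0.2), with B16 replicate 3 above GL261 replicate 3. Its spread included the control libraries, of which 2 were at 0. In a fit of the 6 tumor-associated libraries alone its SE was 0.64 and the limma adjusted p was 0.440, and with the number of genes above 0 as a covariate the difference turned to -0.45. Over the 18 alternatives with a limma p, the adjusted p lay between 0.440 and 1 for Ly6a, 0.126 and 0.723 for Ly6c1, 0.245 and 1 for Ly6c2, 0.167 and 0.856 for Ly6e, and 0.362 and 1 for Gpihbp1.

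**Figure D4:**
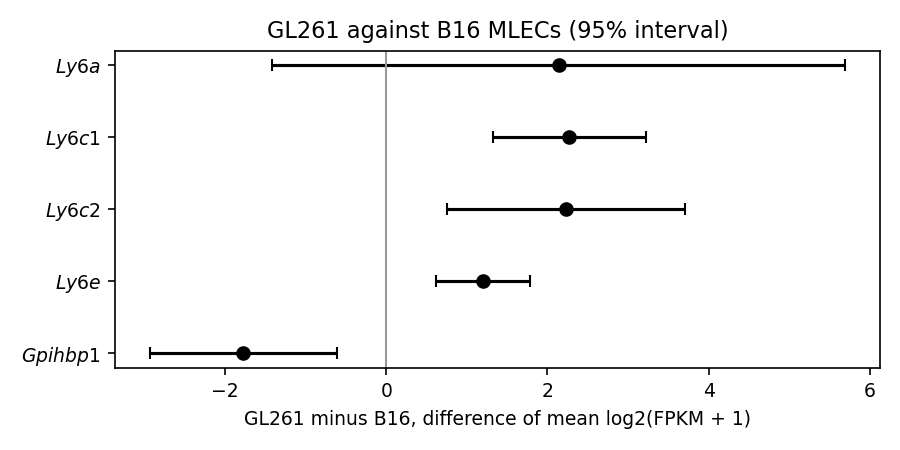
GL261 minus B16 difference of the mean log2(FPKM + 1) for each gene (points) with its unadjusted 95% interval from limma (bars, 3 libraries a group). The intervals of Ly6c1, Ly6c2 and Ly6e lie above 0, that of Gpihbp1 lies below 0 and that of Ly6a spans 0.

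The libraries of a group were not alike. GL261 replicate 3 had the lowest value of its group for all 5 genes, and it was the GL261 library with the highest Prox1 (16.5 FPKM), the highest summed level of 9 lymphatic marker genes (2954 FPKM, against 954 and 1861) and the fewest genes above 0 (9456). B16 replicate 2 had the lowest value of its group for Ly6a, Ly6c1, Ly6c2 and Ly6e and the highest for Gpihbp1. It was the B16 library with the lowest summed level of the lymphatic marker genes (2123 FPKM, against 3943 and 6708), unlike GL261 replicate 3. Its Prox1 was the highest of the B16 libraries (3.72 FPKM). A link between these markers and the 5 genes was not tested. Over the 9 libraries the Pearson r on the log2(FPKM + 1) scale was 0.985 between Ly6c1 and Ly6c2, 0.879 between Ly6a and Ly6c1, 0.682 between Ly6a and Ly6e, 0.461 between Gpihbp1 and Ly6c1 and -0.19 between Ly6e and Gpihbp1. These values describe 9 points that share the 3 groups and their differences in listed genes.

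The genes with the most similar pattern over the 9 libraries were sought among the other 9954 genes tested. For Ly6a they included Gm5127 and Il15 (r of 0.990 and 0.982). Il15 encodes a cytokine that sustains natural killer and memory T cells. Both were listed at 0 in control replicates 1 and 3 and above 0 in replicate 2, as Ly6a was. For Ly6c1 they were Tmem252, Lcp1 and Ms4a6d (0.994, 0.993 and 0.992), of which Lcp1, which encodes the actin-bundling protein L-plastin, and Ms4a6d were at 0 in all control libraries. Those of Ly6c2 were Ly6c1, Ms4a6d and Ctla2a (0.985, 0.985 and 0.982). For Ly6e they were A130010J15Rik, Tm6sf2 and Rtp4 (0.958, 0.957 and 0.917). A130010J15Rik, at most 1.70 FPKM in any library, and Tm6sf2 were listed at 0 in all B16 libraries, where Ly6e was at 571 FPKM or more. Rtp4, an interferon-induced gene, was at 106 to 212 FPKM in GL261 libraries and at 20.2 to 43.9 FPKM in B16 libraries. For Gpihbp1 they were Porcn, Chst11 and Narf (0.961, 0.938 and 0.937), and each of these was, like Gpihbp1, highest in B16 replicate 2. All were listed at 0 in GL261 replicate 3 and at 0.434 FPKM or less in control libraries, where Gpihbp1 was at 145 FPKM or more. These likenesses rest in part on values at or near 0.

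Of 46 other superfamily genes on the list used, 33 were in the table, 8 were above 0 in any library and 4 could be tested. Of these 4, 2 rose in tumor-associated against control MLECs and 0 fell, where 2.9% of all genes tested rose and 1.02% fell (289 and 102 genes). The median difference was 2.52 on the log2(FPKM + 1) scale, against 0.20 for all genes. Cd59a, a GPI-anchored inhibitor of the complement membrane attack complex, was listed at 0 in all control libraries, at 36.1, 30.7 and 7.85 FPKM in GL261 libraries and at 32.0, 17.7 and 58.4 FPKM in B16 libraries (limma adjusted p = 0.00198). Cd59a passed the filter on low values only through tumor-associated libraries, so its test and the count of 2 cannot decide a rise. With the number of genes above 0 as a covariate 0 of the 4 were called. Plaur, the urokinase receptor, was at 0, 76.2 and 17.1 FPKM in control libraries, at 123 to 179 FPKM in GL261 libraries and at 226 to 400.4 FPKM in B16 libraries (difference 4.17, SE 0.98, limma adjusted p = 0.0320). Ly6g6d (difference 0.87, limma adjusted p = 0.722) and Lynx1, a modulator of nicotinic receptors (difference -0.94, limma adjusted p = 0.568), did not pass. Between GL261 and B16 the limma test called 0 of the 4, and 0 had an unadjusted p under 0.05.

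The family depends on the GPI anchor, and 24 of 36 genes of anchor synthesis and transfer could be tested. The limma test of tumor-associated against control MLECs called 0 of them, 6 (25%) had an unadjusted p under 0.05, as 19.0% of all genes tested did, and by ROC power 9 were called, as were 51.6% of all genes. Their median difference was -0.01, with 12 of 24 above 0. Between GL261 and B16 the median was 0.04, and the limma test called 0 of the 24, with 0 at an unadjusted p under 0.05.

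GPIHBP1 works with lipoprotein lipase, its regulators and the proteins that take up the released fatty acids. Of 16 such genes 8 could be tested in tumor-associated against control MLECs, and 1 rose and 1 fell, with a median difference of 0.57. Fabp4, a fatty acid binding protein of adipocytes and capillary endothelium, was at 4.81, 33.2 and 22.7 FPKM in control libraries and at 141 to 1173 FPKM in tumor-associated libraries, where it rose by 5.08 on the log2(FPKM + 1) scale (SE 0.67, limma adjusted p = 9.4e-04). Cd36, a fatty acid transporter, was at 92.6, 33.3 and 63.5 FPKM in control libraries and at 0 to 9.87 FPKM in tumor-associated libraries, and it fell by 4.79 (SE 0.92, limma adjusted p = 0.0112). Lpl itself was listed at 0 in control libraries and had 7.78, 2.02 and 6.80 FPKM in GL261 and 0.639, 0 and 0 FPKM in B16 libraries (limma adjusted p = 0.363). Lpl passed the filter on low values only through the GL261 libraries, where its values were low, so its test cannot decide a change. Its highest values were in GL261 and the highest Gpihbp1 values in B16, and nothing is read from this contrast. Between GL261 and B16 the limma test called 0 of the 8, with 1 at an unadjusted p under 0.05.

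Interferon receptors and interferon-induced genes formed the last list, with 50 of 55 genes tested. In tumor-associated against control MLECs 1 rose and 0 fell, 11 (22.0%) had an unadjusted p under 0.05, close to the 19.0% of all genes, and the median difference was 1.31. The riser was Ifitm2, a membrane protein that restricts virus entry, and its values spanned 1807 to 2121 FPKM in control libraries and 2767 to 5104 FPKM in tumor-associated ones (difference 1.01, SE 0.21, limma adjusted p = 0.0186).

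Between the tumors the values of the interferon list were mostly higher in GL261. Of the 50 genes 46 (92.0%) had a higher mean in GL261 than in B16 MLECs, against 50.6% of all genes tested, and the median difference was 2.2, against 0.01. For 32 of the 50 (64.0%) every GL261 library was above every B16 library, where 7.13% of all genes were, and for 0 the reverse held. The limma test called 1 of them, B2m, the light chain of MHC class I (difference 2.37, SE 0.18, limma adjusted p = 2.0e-04), and 28 had an unadjusted p under 0.05. Ifngr1, a receptor chain for interferon gamma, differed by 0.53 between GL261 and B16 (limma adjusted p = 1). The 4 genes with a lower mean in GL261 were the receptor chains Ifnar1, Ifnar2 and Ifngr2 and the transcription factor Irf8. Per library, the mean of the list on the log2(FPKM + 1) scale was 6.24, 5.49 and 5.90 in GL261, 3.20, 3.43 and 3.85 in B16 and 2.70, 3.63 and 3.84 in control replicates 1 to 3. GL261 libraries were above all others, and B16 and control libraries overlapped. Ly6e likewise had GL261 libraries above all others and overlapping B16 and control libraries, whereas Ly6a, Ly6c1, Ly6c2 and Gpihbp1 had B16 libraries above all control libraries. Some genes of the list, such as Ifitm1 and Rsad2, passed the filter on low values only through GL261 libraries. Such genes could only stand higher in GL261, and the counts, the median and the library means include them. These values therefore cannot decide a shift of the list. This comparison of the list between the tumors was chosen after seeing the data, and it is a count and a median with no test.

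**Figure D5:**
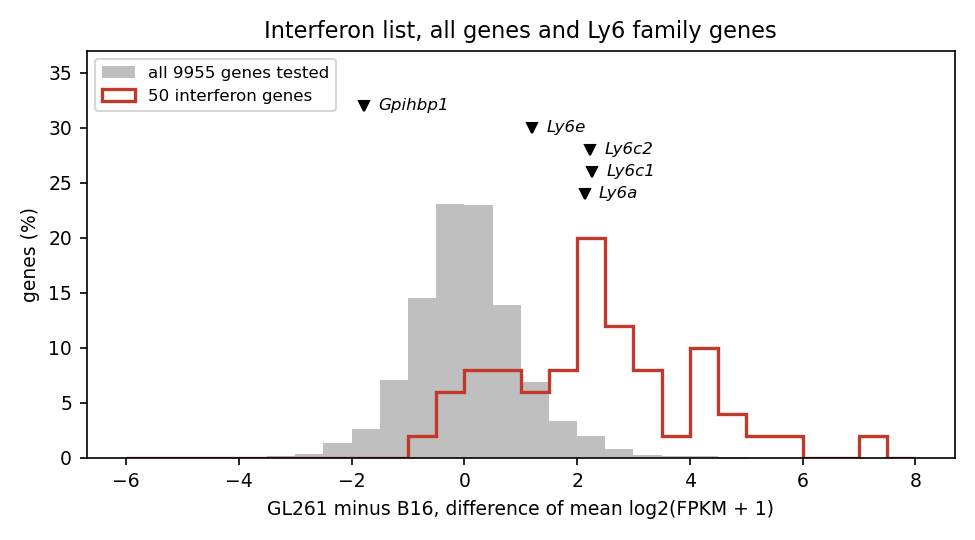
Distribution of the GL261 minus B16 difference of mean log2(FPKM + 1) for all 9955 genes tested (gray) and for the 50 interferon genes (red outline), as a percent of each set, with the 5 Ly6 family genes as triangles (their height has no meaning). The interferon list has its median at 2.2 and all genes at 0.01, and Ly6c1, Ly6c2, Ly6a and Ly6e lie on the GL261 side and Gpihbp1 on the B16 side.

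Markers of other cells were examined because Ly6a, Ly6c1, Ly6c2 and Gpihbp1 are also carried by blood endothelium and Ly6c2 by monocytes. The 13 blood endothelial markers summed to 2388 to 3192 FPKM in control, 5221 to 6298 FPKM in GL261 and 5455 to 8333 FPKM in B16 libraries. Of 12 tested, 8 were called higher in tumor-associated MLECs (Flt1, Cd34, Emcn, Esam, Vwf, Plvap, Aplnr and Slc2a1), as were 2.9% of all genes tested. Flt1 and Aplnr passed the filter on low values only through tumor-associated libraries. Cd34, Vwf and Slc2a1 also needed tumor-associated libraries to pass, since fewer than 3 control libraries had an FPKM of 1 or more. The count of 8 therefore cannot decide a rise. Emcn, Esam and Plvap were above 1 FPKM in every control library. Kdr, Cldn5, Sox17 and Podxl were not called, and Cldn5 was lower in GL261 (698 to 890 FPKM) than in control libraries (1497 to 1702 FPKM). The 9 lymphatic markers summed to 10374 to 16693 FPKM in control, 954 to 2954 FPKM in GL261 and 2123 to 6708 FPKM in B16 libraries, and 4 of 8 tested fell (Flt4, Ccl21c, Mmrn1 and Reln). The sums of 6 pan-endothelial markers were 1791 to 2345, 2033 to 2421 and 2440 to 3049 FPKM for control, GL261 and B16. Blood endothelial sums overlapped between GL261 and B16, but single markers shifted in opposite directions within them. Plvap was at 1462 to 2004 FPKM in GL261 and 2599 to 4037 FPKM in B16 libraries, and Cldn5 at 698 to 890 and 1136 to 1679 FPKM. Slc2a1 was at 211 to 312 FPKM in GL261 and 77.6 to 174 FPKM in B16 libraries. The part of these markers in the levels of the 5 genes was not tested.

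The 12 monocyte and macrophage markers summed to 170 to 310 FPKM in control, 126 to 722 FPKM in GL261 and 45.7 to 359 FPKM in B16 libraries. Ptprc, which encodes the CD45 used to remove immune cells in the sort, Adgre1 and Ccr2 were listed at 0 in all 9 libraries. The groups overlapped, and the limma test called 0 of the 6 markers that could be tested in tumor-associated against control MLECs, with 1 at an unadjusted p under 0.05. Neutrophil markers summed to at most 9.78 FPKM, those of T and B cells to at most 22.4 FPKM, those of melanocytes and melanoma to at most 4.07 FPKM and those of glia and glioma to at most 9.32 FPKM in any library. Fibroblast markers summed to 16.2 to 49.0 FPKM in control libraries and to at most 3.85 FPKM in tumor-associated libraries, and Dcn, the 1 of them that could be tested, fell. Mural cell markers reached 567 FPKM in control replicate 1, of which Acta2 made up 505 FPKM, and at most 11.4 FPKM in any tumor-associated library. The part of these markers in the levels of the family was not tested.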

How the data were processed

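The 9 RNA-seq libraries were grouped by the sample labels into control, GL261 and B16 MLECs, 3 each, and each replicate was a pool of different animals. Per the labels, cDNA was made by Smart-seq2. The authors trimmed and filtered the reads, aligned them to mm9 with TopHat2 2.0.12 and computed expression with Cufflinks 2.2.1, as the submitters' processing notes and the paper's methods state, and deposited it as FPKM. How reads matching several genes were divided, and which gene annotation was used, is not given in the sources used here. FPKM hold no counts, so a count test could not be run and the depth of a library is unknown.

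The deposited FPKM were turned into log2(FPKM + 1), a scale that understates the change of low genes. A gene was tested if 3 or more libraries had an FPKM of 1 or more. The test was limma 3.58.1 under R 4.3.3, with lmFit and trended eBayes, Benjamini-Hochberg adjustment and a threshold of 0.05. All 9 libraries in 3 groups shared 1 spread for GL261 against B16, and GL261 and B16 were joined against control as in the study. Single genes also had an exact two-sided permutation test. The scripts were tested on simulated data. The study selected genes by a ROC power above 0.4 with the Seurat software. The same threshold was run as an alternative on all genes tested, without Seurat, and it called far more genes than the study reported. The other alternatives were a pseudocount of 0.1, FPKM rescaled to the same sum, quantile normalization, 2 other filters (any FPKM above 0, mean FPKM of at least 10), the replicate number as a block, eBayes without a trend, the number of genes above 0 as a covariate, a fit of the 6 tumor-associated libraries and leaving out each library.

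The members and gene lists were chosen with earlier results of these data known. Named genes are the members, the tested superfamily genes, the 3 genes most similar to each member, and the genes of the other lists past the threshold with the largest and smallest differences or with a role stated beside a member. Of the named genes 2, and 1 promoter motif, are not reported here. Positions, coding sequences and promoters came from the GENCODE M1 annotation and the mm9 genome, in which all 5 members matched by symbol, and were handled with Python 3.11.15, pandas 2.3.3 and biopython 1.88. Libraries of different groups with the same replicate number did not deviate together.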

Additional observations from a re-analysis of the deposited data

How the results depend on the processing

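The GL261 minus B16 differences of Ly6c1, Ly6c2, Ly6e and Gpihbp1 kept their direction under all alternatives run, and no limma alternative brought an adjusted p of a member under the threshold. Leaving out 1 library at a time gave 1.66 to 2.82 for Ly6a, 1.91 to 2.64 for Ly6c1, 1.90 to 2.54 for Ly6c2, 1.07 to 1.29 for Ly6e and -2.14 to -1.05 for Gpihbp1. With the number of genes above 0 as a covariate Ly6a turned to -0.45, and the cause was not tested. The signed ROC power was 0.778 for Ly6a, 1 for Ly6c1, Ly6c2 and Ly6e and -1 for Gpihbp1, all past 0.4, as were 4532 genes in all. limma called 1 gene between the tumors in the fit reported, 2 after quantile normalization, 6 without a trend and 1 to 4 when a library was left out.

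For tumor-associated against control MLECs the 391 genes called became 254 with all genes above 0, 11 with the covariate, 5137 by ROC power and 245 to 444 when a library was left out. The difference of Ly6a was 3.50 with the covariate and 6.84 to 10.68 when a library was left out, that of Ly6e turned to -0.60 with the covariate and was 0.30 to 0.79 when a library was left out, and that of Gpihbp1 was 1.14 to 1.92 when a library was left out. The covariate and the group overlap, since all control libraries list fewer genes. Of the superfamily genes, 2 were called, 1 with a pseudocount of 0.1, rescaled FPKM, all genes above 0 or no trend, 0 with the covariate and 1 to 2 when a library was left out. Of the GPI anchor genes, 0 were called, 2 with a pseudocount of 0.1, 9 by ROC power and 0 to 1 when a library was left out. Of the partners of GPIHBP1, 2 were called, 1 with a pseudocount of 0.1, 0 with the covariate, 6 by ROC power and 1 to 2 when a library was left out. Of the interferon genes, 1 was called, 2 with a pseudocount of 0.1, 0 after quantile normalization, with all genes above 0, with no trend or with the covariate, 32 by ROC power and 0 to 3 when a library was left out. Their median GL261 minus B16 difference, 2.2, became 2.81 with a pseudocount of 0.1, 1.76 with the covariate and 2.03 to 2.32 when a library was left out.

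Replicate numbers did not pair the libraries: deviations from the group means correlated at -0.03 to 0.04 between libraries of the same number and at -0.03 to 0.05 between others. With the replicate number as a block the call of no member changed, and 2 interferon genes were called in tumor-associated against control MLECs in place of 1.

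With 10 cells and 3 libraries a group, values of 0 and the split of reads between Ly6c1 and Ly6c2 limit what the levels show.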
